A study of Mus musculus with 5 samples.

Results

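The clustered replication-dependent histone genes are the gene copies that supply histones H1, H2A, H2B, H3 and H4 while DNA is copied. They were taken as every gene symbol in the expression files that begins with Hist1h, Hist2h, Hist3h or Hist4h, which gave 68 of 22026 symbols. The symbols assign 6 genes to H1, 18 to H2A, 19 to H2B, 12 to H3 and 13 to H4, and 2 of the 68 carry a pseudogene suffix. The rule reads the symbols and no measured value, though it was set with earlier results of these data known.

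Transcripts were measured by RNA-seq in 5 libraries, 1 per group, of 4-cell mouse embryos of strain B6D2F1, all obtained by nuclear transfer. That method swaps an oocyte's own chromosomes for a donor nucleus. The groups were untreated embryos, embryos given luciferase, H3.3 knockdown embryos, knockdown embryos given H3.3 mRNA, and knockdown embryos given H3.2 mRNA. The last library carries conflicting labels: its title names H3.2 mRNA and its treatment tag names H3.3 mRNA, and the title is followed here. The libraries with added H3.3 or H3.2 mRNA are called the H3.3 and H3.2 add-back. Source names also differ: luciferase and H3.2 mRNA are called SCNT, and the remaining 3 libraries NT. The donor cell, the means of knockdown and the number of embryos in each library are not given in the sources used here. With 1 library per group no difference has a replicate check, and no p-value is given.

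Most mRNAs of these genes are made in S phase, have no introns and end in a conserved stem-loop in place of a poly(A) tail. The stem-loop binding protein SLBP holds that stem-loop through processing, export and translation, and the mRNAs are degraded when replication stops. Some members also give longer transcripts that run past the stem-loop and are polyadenylated, a form known from cells that no longer divide. An early embryo starts with histone mRNA and protein stored in the oocyte. H3.3, made from the genes H3f3a and H3f3b, is placed in chromatin independently of replication.

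The stem-loop is shown because it is the feature that sets these mRNAs apart and because the members differ in how far their annotated transcripts run beyond it. The pattern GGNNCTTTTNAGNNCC, read on the transcript strand, was searched in the GENCODE transcripts of GRCm38. It was found in 43 of the 68 members and in 0.329% of all protein-coding genes. The 43 members carried 6 forms, printed here with the loop in capitals and named by an example gene. No match says only that these letters are missing from the annotated transcript.
Hist1h1c: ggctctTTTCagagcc
Hist1h1t: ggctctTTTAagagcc
Hist2h2ac: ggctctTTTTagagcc
Hist1h4c: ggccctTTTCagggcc
Hist1h4i: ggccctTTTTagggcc
Hist1h4b: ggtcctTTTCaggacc
The form of Hist1h1c was the most common, with 25 members of H1, H2A, H2B and H3, and that of Hist1h1t was found in 6 members of H1, H2B and H3. Hist2h2ac was the only member with its form. The other 3 forms were found in H4 genes, the form of Hist1h4c in 7 members and those of Hist1h4i and Hist1h4b in 2 members each.

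The values are FPKM, reads divided by transcript length and by the library total, and the depth of each library is unknown. Embryo and oocyte markers such as Pou5f1 and Dppa3 were above 0 FPKM for 10 of 10 genes in each library except the H3.3 add-back library, where 9 of 10 were. Their summed level ranged from 8262 to 26786 FPKM. Fibroblast markers were all at 0 in every library but the luciferase one, where 2 of 6 gave a sum of 6.71 FPKM. Of 6 cumulus cell markers 1 was above 0 in the luciferase library, at 4.85 FPKM, and in the H3.2 add-back library, at 0.87 FPKM. Among 4 blood markers Hba-a1 was the 1 above 0, in every library but the H3.2 add-back, at 1.95 to 49.0 FPKM. The part of these cells in the histone values was not tested. The knockdown targets H3f3a and H3f3b together gave 5266 FPKM in the untreated library, 5734 with luciferase and 664 in the knockdown, then 467 in the H3.3 add-back and 420 in the H3.2 add-back. The sum in the library given H3.3 mRNA thus lay below that of the knockdown and does not show the added mRNA.

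Detection of the histone genes differed widely between libraries. In the untreated library 36 of 68 members, or 52.9%, were above 0 FPKM, against 47.4% of all genes. In the luciferase library 16 members, or 23.5%, were above 0, against 55.8% of all genes. The knockdown library had 12 members above 0, or 17.6%, against 47.7%. In the H3.3 add-back 2 members were above 0, or 2.94%, against 51.2%, and in the H3.2 add-back 18 members, or 26.5%, against 55.7%. The share of members was thus near that of all genes in the untreated library and lay below it in the other 4. Fewer cells, less histone mRNA per cell and a lower yield of such mRNA in the library cannot be told apart in these samples. Among the libraries named NT the counts were 36, 12 and 2, and among those named SCNT 16 and 18, so the range within the NT libraries spanned that of the SCNT libraries.

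**Figure D1:**
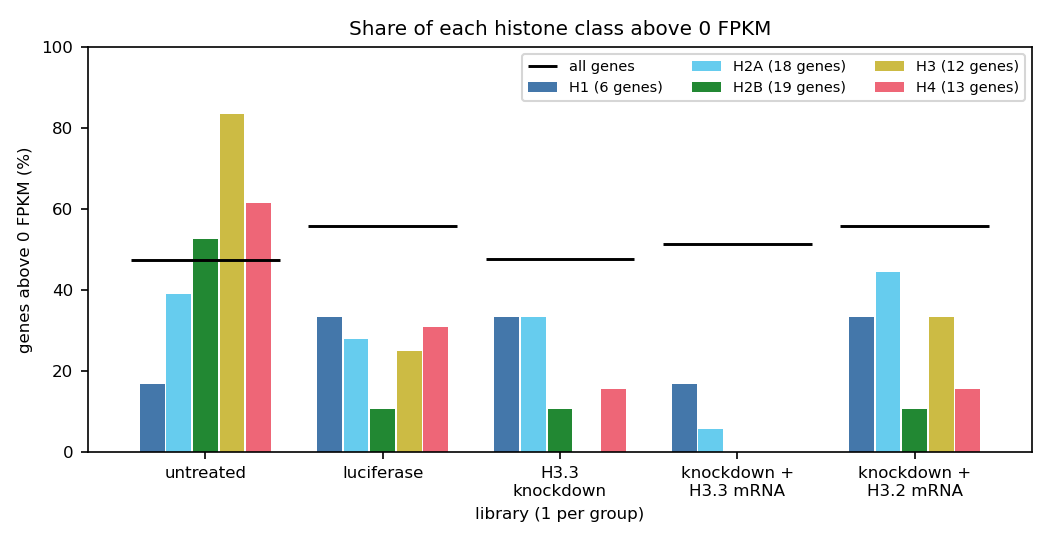
Percentage of genes above 0 FPKM in each library (1 per group), with a bar for each histone class and a black line for all 22026 genes. In the untreated library H2B, H3 and H4 lie above the line, and in the other 4 libraries every class lies below its line.

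By class, H3 was the most broadly detected in the untreated library, with 10 of 12 members above 0, followed by H4 with 8 of 13, H2B with 10 of 19, H2A with 7 of 18 and H1 with 1 of 6. The luciferase library had 2 H1, 5 H2A, 2 H2B, 3 H3 and 4 H4 members above 0. In the knockdown library 2 H1, 6 H2A, 2 H2B and 2 H4 members were above 0, and all 12 H3 members were listed at 0. The H3.3 add-back library had 1 H1 and 1 H2A member above 0, with every H2B, H3 and H4 member listed at 0. The H3.2 add-back library had 2 H1, 8 H2A, 2 H2B, 4 H3 and 2 H4 members above 0. By count H2A had the most members above 0 in the luciferase, knockdown and H3.2 add-back libraries, though mostly at levels under 1 FPKM. As a share of the class, H1 at 33.3% and H4 at 30.8% lay above H2A at 27.8% with luciferase. In the knockdown H1 and H2A were equal at 33.3%, and H2A led by share in the H3.2 add-back. A listed 0 can be an estimate that failed as well as an absence of reads.

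Across the 5 libraries 41 members were above 0 in at least 1, as were 64.8% of all genes, and the other 27, or 39.7%, were listed at 0 throughout, against 35.2% of all genes. No member was above 0 in all 5, as were 38.8% of all genes. Of the members, 18 were above 0 in 1 library, 9 in 2, 8 in 3 and 6 in 4. These were 26.5%, 13.2%, 11.8% and 8.82% of the members, against 7.75%, 5.80%, 5.46% and 7.06% of all genes. The untreated library alone held 14 members, or 20.6% of the 68, against 1.11% of all genes that were above 0 only there. The luciferase library alone held Hist1h2bn and Hist1h1e, and the H3.2 add-back library alone held Hist1h4b and Hist1h2af, each pair 2.94% of the members against 2.78% and 2.24% of all genes. Neither the knockdown nor the H3.3 add-back library held a member that was at 0 elsewhere, and all genes of that kind made up 0.622% and 1% there. Of the 12 members above 0 in the knockdown, 11 were also above 0 in the untreated library. The like overlap over all genes was not counted, so the 11 of 12 cannot be read as particular to histone genes.

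**Figure D2:**
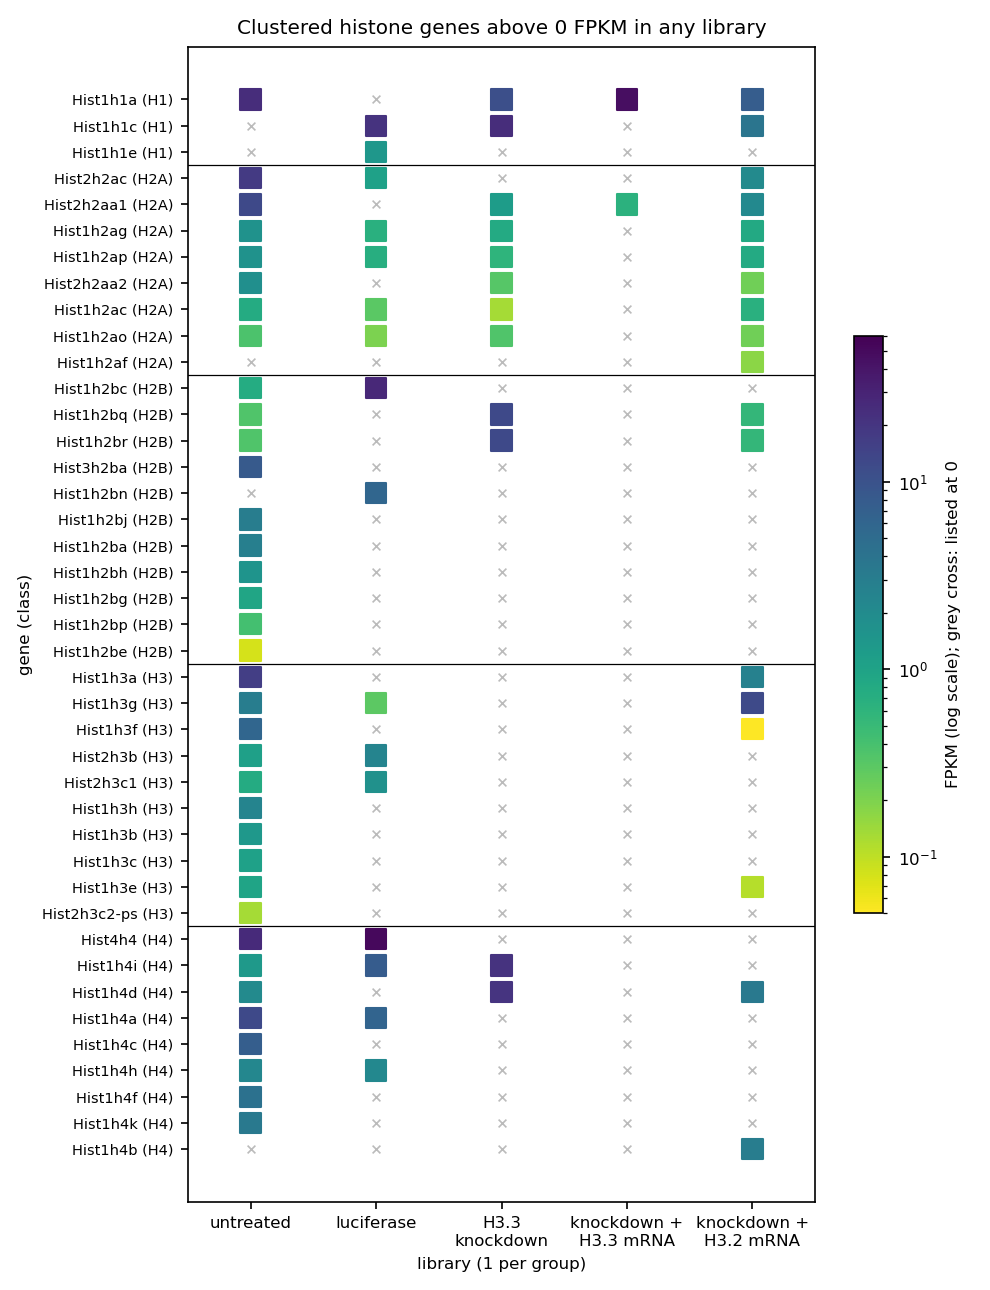
FPKM of the 41 members above 0 in at least 1 library, by class (rows) and library (columns), with color on a log scale and grey crosses for values listed at 0. The untreated column is the fullest with 36 filled squares, and the H3.3 mRNA column holds 2.

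Most detected members were at low levels. The median over members above 0 was 1.76 FPKM in the untreated library, 1.96 with luciferase, 6.03 in the knockdown and 0.815 in the H3.2 add-back, whereas the medians over all genes above 0 were 89.1, 49.2, 67.6 and 56.4 FPKM. The H3.3 add-back had 2 members above 0, Hist1h1a at 45.9 and Hist2h2aa1 at 0.65 FPKM. Their median was 23.3 FPKM, beside 60.6 FPKM over all genes above 0. Members at 10 FPKM or more numbered 6 in the untreated, 3 in the luciferase, 6 in the knockdown and 1 in each add-back library. The share of all genes at that limit was not counted. Summed over all members, the level was 171 FPKM in the untreated library, 131 with luciferase, 106 in the knockdown, 46.6 in the H3.3 add-back and 41.1 in the H3.2 add-back. The last pair changed order without Hist1h1a, the member with the highest mean, since the sums were then 0.65 FPKM in the H3.3 add-back and 33.6 in the H3.2 add-back.

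**Figure D3:**
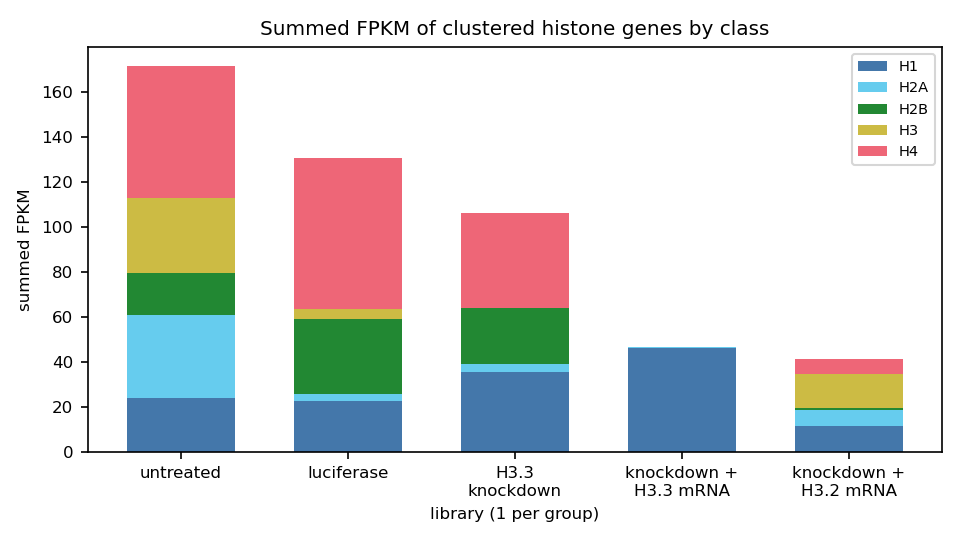
Summed FPKM of the clustered histone genes in each library (1 per group), stacked by class. The bars fall from 171 FPKM in the untreated library to 41.1 in the H3.2 add-back, and the H3.3 mRNA bar is almost wholly H1.

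Linker histones of class H1 bind the nucleosome where DNA enters and leaves it. Hist1h1a, which encodes H1.1, stood at 24.1 FPKM in the untreated library, 0 with luciferase, 10.8 in the knockdown, 45.9 in the H3.3 add-back and 7.57 in the H3.2 add-back. It was the member with the highest mean over the libraries and made up 98.6% of the summed member level in the H3.3 add-back. Its annotated transcript of 741 bases shares no stretch of 51 bases, the read length, with another gene. Hist1h1c, which encodes H1.2, went a different way, with 0 in the untreated library, 21.4 FPKM with luciferase, 24.7 in the knockdown, 0 in the H3.3 add-back and 3.82 in the H3.2 add-back. The library with the most Hist1h1a thus listed Hist1h1c at 0. Hist1h1e, which encodes H1.4, was at 1.39 FPKM with luciferase and listed at 0 in the other 4 libraries. Hist1h1b, Hist1h1d and the testis gene Hist1h1t were listed at 0 in all 5. By class sum, H1 gave 24.1 FPKM in the untreated library, 22.8 with luciferase, 35.5 in the knockdown, 45.9 in the H3.3 add-back and 11.4 in the H3.2 add-back.

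H2A pairs with H2B in the nucleosome, and its highest values were in the untreated library. Hist2h2ac stood at 18.0 FPKM there, 1.08 with luciferase, 0 in the knockdown, 0 in the H3.3 add-back and 2.05 in the H3.2 add-back. Hist2h2aa1 stood at 12.4 FPKM in the untreated library, 0 with luciferase, 1.23 in the knockdown, 0.65 in the H3.3 add-back and 2.16 in the H3.2 add-back. It was the only member besides Hist1h1a above 0 in the H3.3 add-back. Hist2h2aa2 encodes the same protein, and every 51-base stretch of either transcript recurs in another gene. It stood at 1.83 FPKM in the untreated, 0.32 in the knockdown and 0.23 FPKM in the H3.2 add-back library. How the reads of this pair were divided is therefore uncertain.

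A set of H2A genes that encode 1 protein was at low level in every library but the H3.3 add-back. Hist1h2ag stood at 1.65 FPKM in the untreated library, 0.67 with luciferase, 0.81 in the knockdown, 0 in the H3.3 add-back and 0.82 in the H3.2 add-back. Hist1h2ap stood at 1.68, 0.71, 0.6, 0 and 0.81 FPKM in the same order of libraries. Both belong to the 9 members of this set, and 78.9% and 93.1% of their 51-base stretches recur in other genes. Hist1h2ac and Hist1h2ao, of the same 9, had values of 0.13 to 0.78 FPKM in the same 4 libraries. The share was 93.5% for Hist1h2ao but 13.9% for Hist1h2ac, whose annotated transcript is longer. The remaining 5 of these 9 were listed at 0 throughout. For the genes with high shares, the single values depend on how shared reads were assigned. Hist1h2aa, the testis form of H2A, was listed at 0 in every library. The H2A sum was 36.7 FPKM in the untreated library, 2.97 with luciferase, 3.44 in the knockdown, 0.65 in the H3.3 add-back and 7.13 in the H3.2 add-back, so the untreated value stood apart from the other 4.

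H2B drew most of its level from different genes in the untreated, luciferase and knockdown libraries. Hist1h2bc stood at 0.76 FPKM in the untreated library and 27.3 with luciferase, and it was listed at 0 in the knockdown and both add-back libraries. Hist1h2bq and Hist1h2br had the same values in every library, 0.35 FPKM in the untreated, 0 with luciferase, 12.5 in the knockdown, 0 in the H3.3 add-back and 0.55 in the H3.2 add-back. At least 99.8% of the 51-base stretches of these 2 genes recur in other genes, so they are better read as 1 measurement. Hist3h2ba was at 8.23 FPKM and Hist1h2ba, the testis H2B that oocytes also hold, at 2.86 FPKM in the untreated library, and both were listed at 0 elsewhere. Hist1h2bj at 3.02, Hist1h2bh at 1.55, Hist1h2bg at 0.93, Hist1h2bp at 0.42 and Hist1h2be at 0.08 FPKM were likewise above 0 only in the untreated library. Hist1h2bn was the reverse case, at 5.92 FPKM with luciferase alone. The H2B sum was 18.6 FPKM in the untreated library, 33.2 with luciferase, 25 in the knockdown (12.5 with the identical pair taken once), 0 in the H3.3 add-back and 1.1 in the H3.2 add-back.

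H3 is the class that bears on the design, because 1 library is named for added H3.2 mRNA. The clustered genes encode H3.1 or H3.2, which differ in 1 residue. Translated from the GENCODE coding sequences, 4 members encode H3.1 and 7 encode H3.2, of which Hist2h3c1 has a longer annotated start, and Hist2h3c2-ps had no transcript to translate. The differing codon is shown in capitals within its coding stretch for the 4 H3 genes with the highest mean level, since it is the sequence by which reads of the 2 proteins can be told apart at that site.
Hist1h3a: ctgcaggaggccTGTgaggcctacctt
Hist1h3g: ctgcaggaggccTGTgaggcctacctc
Hist1h3f: ctgcaggaggcgAGCgaggcctacctt
Hist2h3b: ctgcaggaggcgAGCgaggcctacctg
Hist1h3a and Hist1h3g belong to the H3.1 set, and Hist1h3f and Hist2h3b to the H3.2 set.

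The H3.1 sum exceeded the H3.2 sum in the untreated and H3.2 add-back libraries, and in each 1 gene made up most of the H3.1 sum. Hist1h3a stood at 16.6 FPKM in the untreated library, 0 with luciferase, 0 in the knockdown, 0 in the H3.3 add-back and 2.76 in the H3.2 add-back. Hist1h3g stood at 3.06 FPKM in the untreated library, 0.3 with luciferase, 0 in the knockdown, 0 in the H3.3 add-back and 12.09 in the H3.2 add-back, where it was the highest member of any class. Hist1h3h was at 2.42 FPKM in the untreated library alone. The H3.1 sum was 22.1 FPKM in the untreated library, 0.3 with luciferase and 14.9 in the H3.2 add-back. Without Hist1h3a the untreated H3.1 sum was 5.48 FPKM, below the full H3.2 sum of 11.1 FPKM. With the highest H3.2 gene, Hist1h3f, left out as well, the untreated H3.2 sum was 5.27 FPKM, so the 2 sums were close. Without Hist1h3g the H3.1 sum in the H3.2 add-back was 2.76 FPKM. These sums without single genes were taken after seeing the data.

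The H3.2 genes, with Hist2h3c1 among them, gave 11.1 FPKM in the untreated library with 6 of 7 members above 0, and 4.17 FPKM with luciferase with 2 of 7. They were listed at 0 in the knockdown and in the H3.3 add-back, and gave 0.16 FPKM in the library titled H3.2 mRNA. Hist1h3f, the highest of them, stood at 5.87 FPKM in the untreated library and 0.05 in the H3.2 add-back. Hist1h3e had 0.95 and 0.11 FPKM there. With luciferase the members above 0 were Hist2h3b at 2.47 and Hist2h3c1 at 1.7 FPKM, whose untreated values were 1.1 and 0.79 FPKM. Hist1h3b at 1.36 and Hist1h3c at 1.07 FPKM were above 0 in the untreated library alone. The values of the H3.2 genes therefore do not show the H3.2 mRNA that the title of that library names, and of the H3 genes there Hist1h3g and Hist1h3a, which encode H3.1, were at 1 FPKM or more. Whether added mRNA lies outside these gene models, or its reads were assigned elsewhere, was not tested. Between 24.7% and 100% of the 51-base stretches of the H3.2 genes recur in other genes.

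On the same per-length scale the clustered H3 genes gave a small part of the H3 level measured in these libraries. Their sum was 33.4 FPKM in the untreated library, or 0.633% of the H3f3a and H3f3b sum there. It was 4.47 FPKM with luciferase, or 0.078% of that sum, and 15.01 FPKM in the H3.2 add-back, or 3.57%. In the knockdown and H3.3 add-back libraries the clustered H3 sum was listed at 0 while the H3.3 genes stood at 664 and 467 FPKM. Most mRNAs of the clustered genes lack a poly(A) tail, and the RNA selection step is not stated. How much of such mRNA the libraries captured is therefore unknown, and these shares may not hold for the embryos.

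H4 pairs with H3 at the core of the nucleosome, and all 13 members encode the same protein. Hist4h4, the single gene of its cluster, stood at 25.6 FPKM in the untreated library and 50.9 with luciferase, the highest value of any member in either, and was listed at 0 in the knockdown and both add-back libraries. Hist1h4i stood at 1.34 FPKM in the untreated library, 7.94 with luciferase, 21.4 in the knockdown, 0 in the H3.3 add-back and 0 in the H3.2 add-back. Hist1h4d stood at 2.07 FPKM in the untreated library, 0 with luciferase, 20.8 in the knockdown, 0 in the H3.3 add-back and 3.44 in the H3.2 add-back. Both H4 genes above 0 in the knockdown were thus also above 0 in at least 1 control, at lower levels. Hist1h4a stood at 12.4 FPKM in the untreated library and 6.23 with luciferase, and was listed at 0 elsewhere. Hist1h4h was at 2.24 FPKM in the untreated library, 2.21 with luciferase and 0 in the other 3. Hist1h4c at 7.38, Hist1h4f at 4.31 and Hist1h4k at 3.44 FPKM were above 0 in the untreated library alone, and Hist1h4b at 3.07 FPKM in the H3.2 add-back alone. The H4 sum was 58.7 FPKM in the untreated library, 67.3 with luciferase, 42.1 in the knockdown, 0 in the H3.3 add-back and 6.51 in the H3.2 add-back.

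The members lie in 4 clusters, Hist1 on chromosome 13 with 54 genes, Hist2 on chromosome 3 with 10, Hist3 on chromosome 11 with 3 and Hist4 on chromosome 6 with 1. From Hist1, 28 genes were above 0 in the untreated library, 12 with luciferase, 10 in the knockdown, 1 in the H3.3 add-back and 15 in the H3.2 add-back. The Hist1 sum was 103 FPKM in the untreated library and 105 in the knockdown. The latter counts Hist1h2bq and Hist1h2br separately, at 12.5 FPKM each. With that identical pair taken once, the Hist1 sum of the knockdown lay below the untreated one. The sums of Hist2, Hist3 and Hist4 were lower in the knockdown with either count. The Hist2 sum was 34.3 FPKM in the untreated library, 5.25 with luciferase, 1.55 in the knockdown, 0.65 in the H3.3 add-back and 4.44 in the H3.2 add-back. In the knockdown and both add-back libraries Hist3 and Hist4 were listed at 0.

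The annotated 3′ end divided the members in a way the choice of genes had not used. Of the 43 members with a stem-loop, 22 have transcripts that end within 100 bases of it, at most 74 bases past, and 21 have transcripts that run on for 151 to 4884 bases. The limit of 100 bases was chosen after the values were seen. Members with the short end gave 64.97 FPKM, or 37.9% of the summed member level, in the untreated library, and 12.13 FPKM, or 29.5%, in the H3.2 add-back. They gave 4.87 FPKM (3.73%) with luciferase, 3.31 FPKM (3.12%) in the knockdown and 0.65 FPKM (1.396%) in the H3.3 add-back. Hist2h2ac, Hist1h3a and Hist2h2aa1 were the highest of this kind in the untreated library.

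Members with the long end gave 55.5 FPKM, or 32.4%, in the untreated library, 83.6 FPKM (64.0%) with luciferase and 67.0 FPKM (63.1%) in the knockdown. They were listed at 0 in the H3.3 add-back and gave 8.08 FPKM (19.6%) in the H3.2 add-back. Hist4h4, Hist1h1c, Hist1h4i and Hist1h4d are of this kind, and their transcripts run on for 2445, 840, 330 and 770 bases. Single genes carry much of each sum, Hist4h4 alone 39.0% of the whole member level with luciferase. The 24 members without a match, Hist1h1a, Hist1h2bc and Hist1h3g among them, gave 50.8, 42.2, 35.8, 45.9 and 20.9 FPKM in the untreated, luciferase, knockdown, H3.3 and H3.2 add-back libraries. The annotation used by the authors may place these ends elsewhere, and FPKM of short transcripts depends on the length assumed, so the part of length in this division was not tested.

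**Figure D4:**
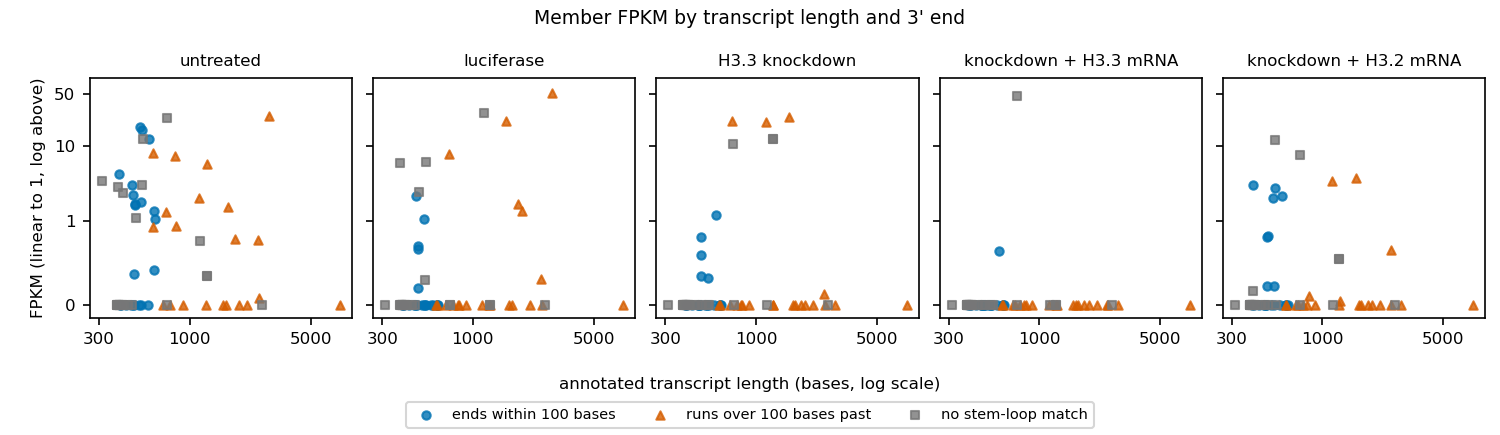
FPKM of each member (linear to 1, log above) against its annotated transcript length in bases (log scale), 1 panel per library, with blue circles for transcripts that end within 100 bases of the stem-loop, orange triangles for those that run on further and grey squares for those without a match. Blue circles above 10 FPKM appear in the untreated panel only. Length and end can come from different transcripts of a gene.

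Reads of 51 bases cannot separate copies that match over that length. Of the 67 members with an annotated transcript, 33 share at least 50% of their 51-base stretches with another gene, 6 share all and 4 share none. The median share was 1.10% for H1, 73.0% for H2A, 45.2% for H2B, 60.4% for H3 and 38.7% for H4. The members above 0 but under 1 FPKM had a median share of 61.3% in the untreated library, 78.9% with luciferase, 93.1% in the knockdown and 93.3% in the H3.2 add-back, and those at 1 FPKM or more had 49.0%, 40.1%, 28.7% and 51.4%. Members listed at 0 in all 5 libraries had a median of 56.0%, and those above 0 in any had 49.3%, and both sets spanned 0 to 100%.

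Differences between libraries were taken on the log2(FPKM + 1) scale over the 13144 genes whose mean was 1 FPKM or more, which 17 of the 68 members passed. A gene counted as higher or lower at 4-fold or more. A member that passes through 1 high library has to differ from the others, so the counts describe these 17 and are no support for a change. With a pseudocount of 10 FPKM in place of 1, all these calls ended but that of Hist4h4, lower in the knockdown than with luciferase. The pairs share libraries, the knockdown entering 4 of the 6.

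Between the controls, 3 of 17 members were at least 4-fold higher with luciferase than in the untreated library, against 23.5% of all genes, and 7 were lower, against 13.4%. The higher members were Hist1h1c, Hist1h2bc and Hist1h2bn, and the lower ones Hist1h1a, Hist1h3a, Hist1h3f, Hist1h4c, Hist2h2aa1, Hist2h2ac and Hist3h2ba. Of the lower members 6 were listed at 0 with luciferase. The median over the 17 was -1.62, beside 0.02 over all genes. With quantile normalization, after which more members pass the filter, 2 were higher and 22 lower.

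In the knockdown, 5 of 17 members were higher than in the untreated library, against 16.8% of all genes, and 9 were lower, against 15.6%. The higher members were Hist1h1c, Hist1h4d, Hist1h4i and the pair Hist1h2bq and Hist1h2br. The lower ones included Hist4h4, Hist2h2ac, Hist1h3a and Hist1h4a, and 8 of the 9 were listed at 0 in the knockdown. The median was -2.02, beside 0 over all genes, and quantile normalization gave 2 higher and 17 lower. Against luciferase, 4 members were higher, against 9.74% of all genes, and 4 lower, against 18.9%. Here Hist1h1a and Hist1h4d were higher with the same H2B pair, and Hist4h4, Hist1h2bc, Hist1h4a and Hist1h2bn were lower. All 8 were listed at 0 in 1 of the 2 libraries, the median was 0 beside -0.12 over all genes, and quantile normalization gave 6 higher and 3 lower. Hist4h4, Hist1h4a and the H2B pair differed from both controls in 1 direction, as did Hist1h4d.

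In the H3.3 add-back no member was higher than in the knockdown, against 16.4% of all genes, and 5 were lower, against 10.1%. These 5 were Hist1h1c, Hist1h2bq, Hist1h2br, Hist1h4d and Hist1h4i, each listed at 0 in the H3.3 add-back. Hist1h1a, at 45.9 against 10.8 FPKM, had a difference of 1.99, just under the 4-fold limit, and passed it with upper-quartile scaling. In the H3.2 add-back the same 5 members were lower than in the knockdown, against 9.11% of all genes, and Hist1h3g was higher, against 19.5%. Both comparisons use the same knockdown library, in which these 5 members stood at 12.5 to 24.7 FPKM. Between the add-back libraries, Hist1h1c, Hist1h3g and Hist1h4d were higher in the H3.2 add-back, against 12.6% of all genes, and Hist1h1a was lower, against 8.38%. The medians over the 17 were 0, 0 and 0.07 in these 3 pairs, beside 0, 0.15 and 0 over all genes.

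Promoters were taken from RefSeq on GRCm38.p6 and found for 61 of the 68 members. Each window was searched on both strands for the octamer ATTTGCAT, bound by the POU factor Oct-1 and known from H2B promoters, for TATAAA, and for CCAAT. No matches of different motifs overlapped in these windows. The octamer was found in 13 member promoters, 7 of 17 for H2A and 6 of 16 for H2B, and in 1.74% of all promoters. TATAAA was found in 35, against 13.6% of all, and CCAAT in 52, against 37.4%, with 3 of 12 H4 promoters holding it. Among the 37 promoters of members above 0 in any library 4 held the octamer, and among the 24 of members at 0 throughout 9 did. For TATAAA these counts were 17 and 18, and for CCAAT 31 and 21. All octamer matches were in H2A and H2B, which hold 10 and 8 of the 27 members at 0 throughout. Class and octamer therefore cannot be told apart in this split. Hist1h1a and Hist2h2ac are shown up to the start of transcription. They differ in the H3.3 add-back, where the former had its highest value and the latter was listed at 0. Hist2h2ac was highest in the untreated library, and both genes were lower with luciferase and in the H3.2 add-back than there. The motifs stand in capitals, read on either strand. The window of Hist1h1a is chr13:23763418-23763667 on the plus strand and that of Hist2h2ac chr3:96220881-96221130 on the minus strand, both GRCm38.p6.
Hist1h1a: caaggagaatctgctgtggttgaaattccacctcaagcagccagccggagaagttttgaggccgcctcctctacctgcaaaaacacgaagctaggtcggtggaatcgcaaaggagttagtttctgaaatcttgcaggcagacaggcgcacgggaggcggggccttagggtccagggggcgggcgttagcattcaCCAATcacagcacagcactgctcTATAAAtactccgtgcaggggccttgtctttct
Hist2h2ac: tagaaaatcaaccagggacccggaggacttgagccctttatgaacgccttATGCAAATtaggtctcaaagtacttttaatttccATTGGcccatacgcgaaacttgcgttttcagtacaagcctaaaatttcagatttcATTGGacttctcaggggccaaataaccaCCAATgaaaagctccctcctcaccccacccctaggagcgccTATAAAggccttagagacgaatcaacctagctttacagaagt
Both hold CCAAT and TATAAA, and Hist2h2ac also holds the octamer. A match is a description of the letters and not evidence of binding.

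The genes that make, process and degrade histone mRNAs were detected more broadly than the histone genes. Of 27 such genes, all were above 0 in every library except Lsm11, a component of the U7 particle that cuts histone precursors, which was listed at 0 in the H3.3 add-back. These 27 are a chosen list, and over all genes 47.4% to 55.8% were above 0 per library. The median of the 27 was 52.4 FPKM in the untreated library, 62.1 with luciferase, 63.6 in the knockdown, 67.8 in the H3.3 add-back and 107.9 in the H3.2 add-back. The medians over all genes above 0 were 89.1, 49.2, 67.6, 60.6 and 56.4 FPKM in that order. Slbp, which encodes the stem-loop binding protein, stood at 967 FPKM in the untreated library, 303 with luciferase, 543 in the knockdown, 395 in the H3.3 add-back and 309 in the H3.2 add-back. It was highest in the library with the most histone genes above 0, but over the other libraries its order did not follow that of the counts. Npat, the coactivator of histone gene clusters that cyclin E and Cdk2 act on, stood at 1.39 FPKM in the untreated library, 43.8 with luciferase, 29.9 in the knockdown, 36.4 in the H3.3 add-back and 72.5 in the H3.2 add-back. Npat was therefore lowest where most histone genes were above 0, but highest in the H3.2 add-back, which had the next most.

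Set against the untreated library, 8 of the 27 were higher in the knockdown by 4-fold or more, beside 16.8% of all genes, and 4 were lower, beside 15.6%. Set against luciferase, 2 were higher and 3 lower, beside 9.74% and 18.9%. Those in 1 direction from both controls were Lsm10, Zfp473 and Zcchc6. Lsm10, a subunit of the U7 particle, stood at 18.0 FPKM in the untreated library, 17.1 with luciferase, 117 in the knockdown, 161 in the H3.3 add-back and 149 in the H3.2 add-back, so the 3 knockdown libraries lay above both controls. Zfp473, a zinc finger protein bound to that particle, stood at 1.98, 11.2, 63.6, 30.2 and 44.9 FPKM in the same order, with the same split. Zcchc6, a uridylyl transferase that takes part in histone mRNA decay, stood at 172.6 FPKM in the untreated library, 62.1 with luciferase, 4.78 in the knockdown, 67.8 in the H3.3 add-back and 86.7 in the H3.2 add-back, the knockdown being the low library. Between the controls 4 of the 27 were higher with luciferase, beside 23.5% of all genes, and 0 were lower, beside 13.4%, with Npat among the 4.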

How the data were processed

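The deposited files hold 1 FPKM value per gene symbol and library. The authors aligned single reads of 51 bases from TruSeq libraries with TopHat and estimated FPKM with Cufflinks on mm9, per the submitters' processing notes and the labels' protocols, which give no versions. The RNA selection step and the donor cells are not stated there. FPKM divides by an assumed transcript length and by the library total, and near-identical copies can trade reads. Depth is unknown: among genes under 20 FPKM in both libraries of a pair, no step worth 1 read was found, the fullest bin of 0.1 log2 units holding at most 3.92%.

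Values were compared as log2(FPKM + 1), with 4-fold as the limit and a filter at a mean of 1 FPKM, in Python 3.11.15 with pandas 2.3.3, and the counting was tested on simulated data. The 25 members of highest mean, the H1 and testis genes and the pathway genes are named by rule, and other members by their pattern of detection. The testis gene Hist3h3 was not analysed here. The members and lists were chosen with earlier results of these data known. Transcript lengths, coding stretches and shared 51-base stretches came from the longest GENCODE M21 transcripts on GRCm38, whose build differs from mm9. Stem-loops and the bases past them came from the longest transcript with a match, which can be a different one. The design foresaw a protein table, and translated coding sequences were used in its place. Alternatives were other detection limits, pseudocount, filter and scalings. No paired analysis was possible because each group has 1 library.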

Additional observations from a re-analysis of the deposited data

How the results depend on the processing

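Detection counts fell with a higher limit. At 1 FPKM or more they were 25 (untreated), 11 (luciferase), 7 (knockdown), 1 (H3.3 mRNA) and 8 (H3.2 mRNA), and at 10 FPKM or more 6, 3, 6, 1 and 1. At the latter limit the knockdown count equalled the untreated one only with the identical Hist1h2bq and Hist1h2br counted separately. With that pair taken once the untreated count was still the higher. Summed FPKM with upper-quartile scaling was 145, 133, 104, 48.3 and 47.0 in that order, and without Hist1h1a 147 (untreated), 95.3 (knockdown), 0.65 (H3.3 mRNA) and 33.6 (H3.2 mRNA). With Hist1h2bq and Hist1h2br taken once, a choice made after seeing the data, the sums were 171.1 (untreated), 93.6 (knockdown) and 40.6 (H3.2 mRNA).

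With a pseudocount of 10 FPKM, 0 members were higher or lower in any pair, except 1 lower in the knockdown than with luciferase. Quantile normalization moved the lower count to 22 for luciferase against untreated, 17 for the knockdown against untreated and 10 for H3.3 mRNA against the knockdown, and the higher count to 2 for the knockdown against untreated and 1 for H3.2 against H3.3 mRNA. Against the knockdown, upper-quartile scaling gave 1 higher member for H3.3 mRNA and 2 for H3.2 mRNA, and no filter 2 for the latter. The member medians for luciferase against untreated were -0.34 (pseudocount 10), 0 (no filter), -1.46 (upper quartile) and -2.75 (quantile). For the knockdown against untreated they were -0.67, 0, -1.84 and -2.65, and for H3.2 against H3.3 mRNA 0.0072, 0, 0.0802 and 0. Upper-quartile scaling moved the median of all genes from 0.02 to 0.27 for luciferase against untreated, from 0.15 to 0.37 for H3.2 mRNA against the knockdown and from 0 to 0.13 for H3.2 against H3.3 mRNA, and quantile normalization moved it from -0.12 to 0 for the knockdown against luciferase. Quantile normalization also evened the calls over all genes, to 51.4%, 47.6% and 53.4% higher from 63.7%, 34.1% and 68.1% for luciferase against untreated, the knockdown against luciferase and H3.2 mRNA against the knockdown. In all, 51 of 102 such values moved. A sum or median counted as moved at any change in its rounded value, and a count only at a larger relative change. The 51 is thus no measure of how firm the results are. The cause of these moves was not tested. Without depth, no detection limit can be set for a listed 0.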
